A study of Mus musculus with 5 samples.

Results

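Dynamic suspension culture was compared with conventional three-dimensional (3D) culture of B16F10, a pigmented mouse skin melanoma line. The comparison rests on 2 of the 5 libraries of the series, chosen by their titles, and covers every gene in the count table. Of the 54100 genes listed, 12875 reached a mean of 1 CPM (counts scaled to library size) over both libraries and are called measured below, and 31807 had a value of 0 in both. Both cultures are labelled WT and untreated, and each library pools 3 repeats of its culture, so there is 1 library per culture, no replicate check and no test of any difference. The stated purpose of both cultures is the enrichment of stem-like tumour cells. A single growth protocol is given for all 5 samples: serum-free DMEM/F12 medium with no added growth factors, a horizontal shaker at 60 to 80 rpm and 37 °C, and 7 to 10 days of growth. Spheroids were then chosen by size and shape, and how the conventional 3D culture departed from this protocol is not given in the sources used here. The library labelled shControl, also WT and under the same written protocol, is given as a further value where useful. The other libraries, labelled knockdown and overexpression of HIF-1α, enter only the scaling.

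Tumour cells kept off a surface aggregate into spheroids, whose outer cells meet medium and oxygen while inner cells meet less of both. Cells in such aggregates lose contact with a flat matrix, and division, matrix production, oxygen sensing, stress signalling and interferon signalling are the programmes most often followed in them. In melanoma the pigment programme, driven by the factor MITF, marks the differentiated state and is often set against an invasive, less pigmented state.

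Levels are CPM after TMM scaling, given for conventional 3D culture first and dynamic suspension second unless the sentence names them. The log2 ratio is that of dynamic suspension over conventional 3D, computed with a prior count of 2. A gene was called higher or lower where the ratio was 2-fold or more and its 95% counting interval excluded no change. The intervals cover counting error only, and they may be too narrow because low values pile up at 4 (796 and 926 genes) over 3 (412 and 425 genes), a pattern of estimated counts. A dagger marks a gene that shares at least 10% of its exon sequence with another gene or a near-identical copy, so that the split of reads between them is uncertain.

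The sums of deposited values were near equal, 61267892 in conventional 3D and 61014260 in dynamic suspension, but their composition differed. RNA of the mitochondrial genome took 13.2% of all values in conventional 3D and 6.17% in dynamic suspension, and the top 10 genes took 14.9% and 9.21%. Among markers of cell types, all 7 melanocyte markers were measured in both libraries, with summed levels of 30823 and 17988 CPM. Of 12 immune markers only Lyz2 and Cd68 were measured, and 6, Cd3e and Cd8a among them, were at 0 in both libraries. All 6 erythroid markers were at 0, no epithelial marker of 10 was measured, and the 8 fibroblast markers summed to 129 and 37.6 CPM.

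Of the 12875 measured genes, 833 were called higher in dynamic suspension (6.47%) and 989 lower (7.68%), together 14.2%. The median log2 ratio of all measured genes was -0.02. Scaling by total count instead moved that median to 0.17 and the split to 1120 higher and 706 lower, so the balance of directions depends on the scaling. Beyond 8-fold there were 83 higher and 74 lower genes. The share called fell from 16.9% higher and 16.6% lower at 1 to 3 CPM to 3.25% and 4.08% at 30 to 100 CPM. It did not keep falling with level, and above 300 CPM it was 4.37% higher and 8.33% lower. Where a list of genes is described below, its count should be read against 6.47% and 7.68%, and its median against -0.02. A gene under 1 CPM in 1 library passed the minimum level only through the other, where it had to be higher. The direction of such a gene supports nothing by itself, and Zbp1, Lif, Egr2, Ankrd37† and Klf4 are among those counted below.

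**Figure D1:**
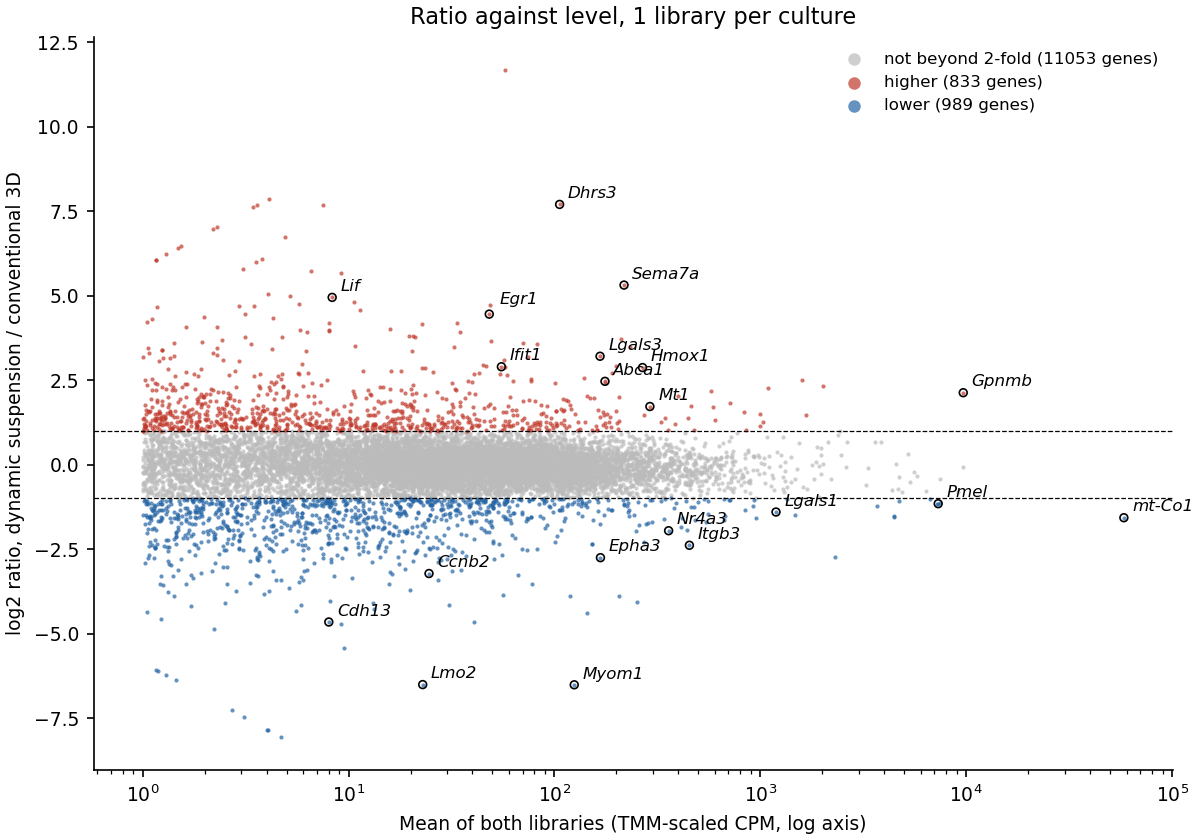
Log2 ratio of dynamic suspension over conventional 3D culture (vertical axis) against the mean of both libraries in TMM-scaled CPM (horizontal log axis), 1 point for each of 12875 measured genes, with dashed lines at 2-fold. The 833 genes called higher are red and the 989 called lower blue, and the spread of ratios widens as the level falls.

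Among genes of at least 10 CPM whose exons overlap no other gene and that have no near-identical copy, Dhrs3 had the highest ratio and Lmo2 the lowest. Dhrs3, which reduces retinal to retinol, had 0.977 and 211 CPM, a 208-fold difference, and lies at chromosome 4, 144892827 to 144928209 (GRCm38). Sema7a, a membrane-anchored semaphorin that binds integrins, had 10.6 and 425 CPM (39.8-fold) at chromosome 9, 57940112 to 57962865. Lmo2, a LIM-domain partner of transcription factors best known in blood cells, had 45.4 and 0.463 CPM (91.1-fold lower) at chromosome 2, 103957986 to 103981878. Myom1, a sarcomere M-band protein outside that ranking because a small part of its exon sequence is shared, had 247 and 2.66 CPM (91.5-fold lower) at chromosome 17, 71002633 to 71126856. Each of these differences is far wider than its counting interval, which for the log2 ratio ran from 7.36 to 8.18 for Dhrs3 and from -7.21 to -6.08 for Lmo2.

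Other genes high in dynamic suspension came from varied classes. Plekhb1 had 0.695 and 20.6 CPM, Gsta3, a glutathione transferase, 1.8 and 29.9 CPM, and Azgp1, a secreted lipid-mobilising glycoprotein, 2.69 and 38.5 CPM. Anpep, an aminopeptidase of the cell surface, had 2.82 and 39.1 CPM, and Espn, an actin bundler, 14.6 and 134 CPM. Of the genes lowest in dynamic suspension, Cort, a neuropeptide precursor, had 78.2 and 3.06 CPM, and Slc9a5, a sodium-proton exchanger, 29.1 and 2.47 CPM. Measured in CPM rather than in ratio, the largest gain was that of Gpnmb, a melanosome and lysosome glycoprotein, at 3596 and 15738 CPM, followed by Ctsb†, the lysosomal protease cathepsin B, at 673 and 3375 CPM. Among nuclear protein-coding genes, Pmel, the fibril protein of melanosomes, showed the largest loss, at 10082 and 4526 CPM.

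Cell division genes were lower in dynamic suspension. The mitosis list holds 71 genes, all measured, of which 62 were called lower and 0 higher, with a median log2 ratio of -1.98. Their summed level was 2529 CPM in conventional 3D, 717 CPM in dynamic suspension and 7042 CPM in shControl, so conventional 3D lay between the other libraries. In pooled RNA, fewer dividing cells and less RNA per dividing cell cannot be told apart.

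By role, all 10 mitotic kinases, all 16 spindle motors and spindle proteins and all 16 centromere and checkpoint genes were called lower. Pbk, a mitotic kinase, had 29.5 and 3.08 CPM, and Nek2, which separates centrosomes, had 33.7 and 3.92 CPM. Aspm, a spindle pole protein, had 31 and 4.01 CPM, the motor Kif2c 22.9 and 3.1 CPM, and Cenpa, the centromeric histone, 28.5 and 3.13 CPM. Cdk1, the kinase that drives entry into mitosis, had 71.8 and 18.8 CPM, and Foxm1, which drives late cell cycle genes, 77 and 19.5 CPM. The members that were not called included Pttg1, the securin, at 47.6 and 49.1 CPM, Wee1 at 23 and 17.2 CPM, and the condensin subunit Smc4 at 34.5 and 22.5 CPM. Lin9 and Lin54, subunits of the complex that represses and activates these genes, had 11.9 and 11.6 CPM and 13.4 and 11.8 CPM.

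Promoters of this list hold the letters that its regulators are known to read, and a pair of them is shown because both genes were called lower. The windows are from RefSeq (GRCm38.p6), 250 bases before to 30 bases after the annotated start, at chr9:70421525-70421804 on the minus strand for Ccnb2 and chr10:69352883-69353162 on the minus strand for Cdk1. Capitals mark TTTGAA, the cell cycle homology region, and CCAAT, each on either strand.
Ccnb2: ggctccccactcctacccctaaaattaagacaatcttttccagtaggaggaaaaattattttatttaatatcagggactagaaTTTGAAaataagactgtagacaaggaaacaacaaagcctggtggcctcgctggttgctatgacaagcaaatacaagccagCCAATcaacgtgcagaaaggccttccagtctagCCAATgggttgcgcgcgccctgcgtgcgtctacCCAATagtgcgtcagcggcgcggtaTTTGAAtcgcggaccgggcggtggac
Cdk1: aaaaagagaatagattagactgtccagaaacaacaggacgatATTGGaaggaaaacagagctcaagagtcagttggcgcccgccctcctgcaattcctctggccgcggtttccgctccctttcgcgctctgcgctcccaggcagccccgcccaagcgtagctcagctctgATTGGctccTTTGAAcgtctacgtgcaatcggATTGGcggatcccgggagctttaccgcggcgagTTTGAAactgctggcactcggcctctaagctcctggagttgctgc
Over windows that ran 50 bases past the start, TTTGAA stood in 39 of the 58 mitosis promoters in the table (67.2%), against 11.6% of 9354 promoters of measured genes and 18.2% of all 27025 promoters. CCAAT stood in 69% of the mitosis promoters and 39.5% of those of measured genes. Beside these letters, Ccnb2, a mitotic cyclin, had 44.5 and 4.73 CPM and a log2 ratio of -3.22, and Cdk1 a ratio of -1.93. A match is a description of the sequence and was not tested as a binding site.

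DNA replication genes were lower by less. Of 54 listed and measured, 32 were called lower and 0 higher, with a median of -1.10. Tk1, which salvages thymidine, had 56.2 and 9.48 CPM, and Rrm2, the regulated subunit of ribonucleotide reductase, had 105 and 23.3 CPM. Among the 17 licensing and helicase genes 11 were called lower, including Mcm10 at 23.2 and 6.41 CPM and Orc1†, an origin recognition subunit, at 6.41 and 0.877 CPM. E2f2, an activating E2F factor, had 7.5 and 1.44 CPM, and the repressors E2f7 and E2f8† had 4.02 and 1.13 CPM and 9.53 and 2.91 CPM. Tyms at 7.55 and 9.24 CPM, Dut at 14.8 and 13.5 CPM and Fen1† at 21.2 and 19.8 CPM were not called. The E2F letters TTTCGCGC, TTTGGCGC or TTTCCCGC stood in 18 of 44 replication promoters (40.9%), against 3.81% of those of measured genes and 10.3% of the mitosis promoters.

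In homologous recombination repair, 12 of 35 listed and measured genes were called lower and 0 higher, with a median of -0.49. Brca1, which loads the strand exchange proteins, had 477 and 28.4 CPM (16.8-fold), at chromosome 11, 101488764 to 101551955. Its partner Bard1 had 4.19 and 1.08 CPM, and the Fanconi genes Fancd2 and Fanca† had 47.6 and 9.47 CPM and 13.8 and 2.76 CPM. The damage kinases were close to even: Atr had 26.4 and 26.9 CPM, Atm 35.8 and 46.3 CPM and Chek1 8.7 and 5.45 CPM. Regulators of the earlier G1 phase did not follow 1 direction, with 3 of 28 measured members of 31 called higher and 4 lower. Cdkn2c, an inhibitor of the G1 kinases, had 168 and 34.4 CPM, and Ccnd1†, cyclin D1, 203 and 85.2 CPM, while the antiproliferative Btg1 had 14.5 and 39.7 CPM and Klf9 16.1 and 35.7 CPM. Cdkn1b, the p27 inhibitor, had 122 and 193 CPM and was not called.

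**Figure D2:**
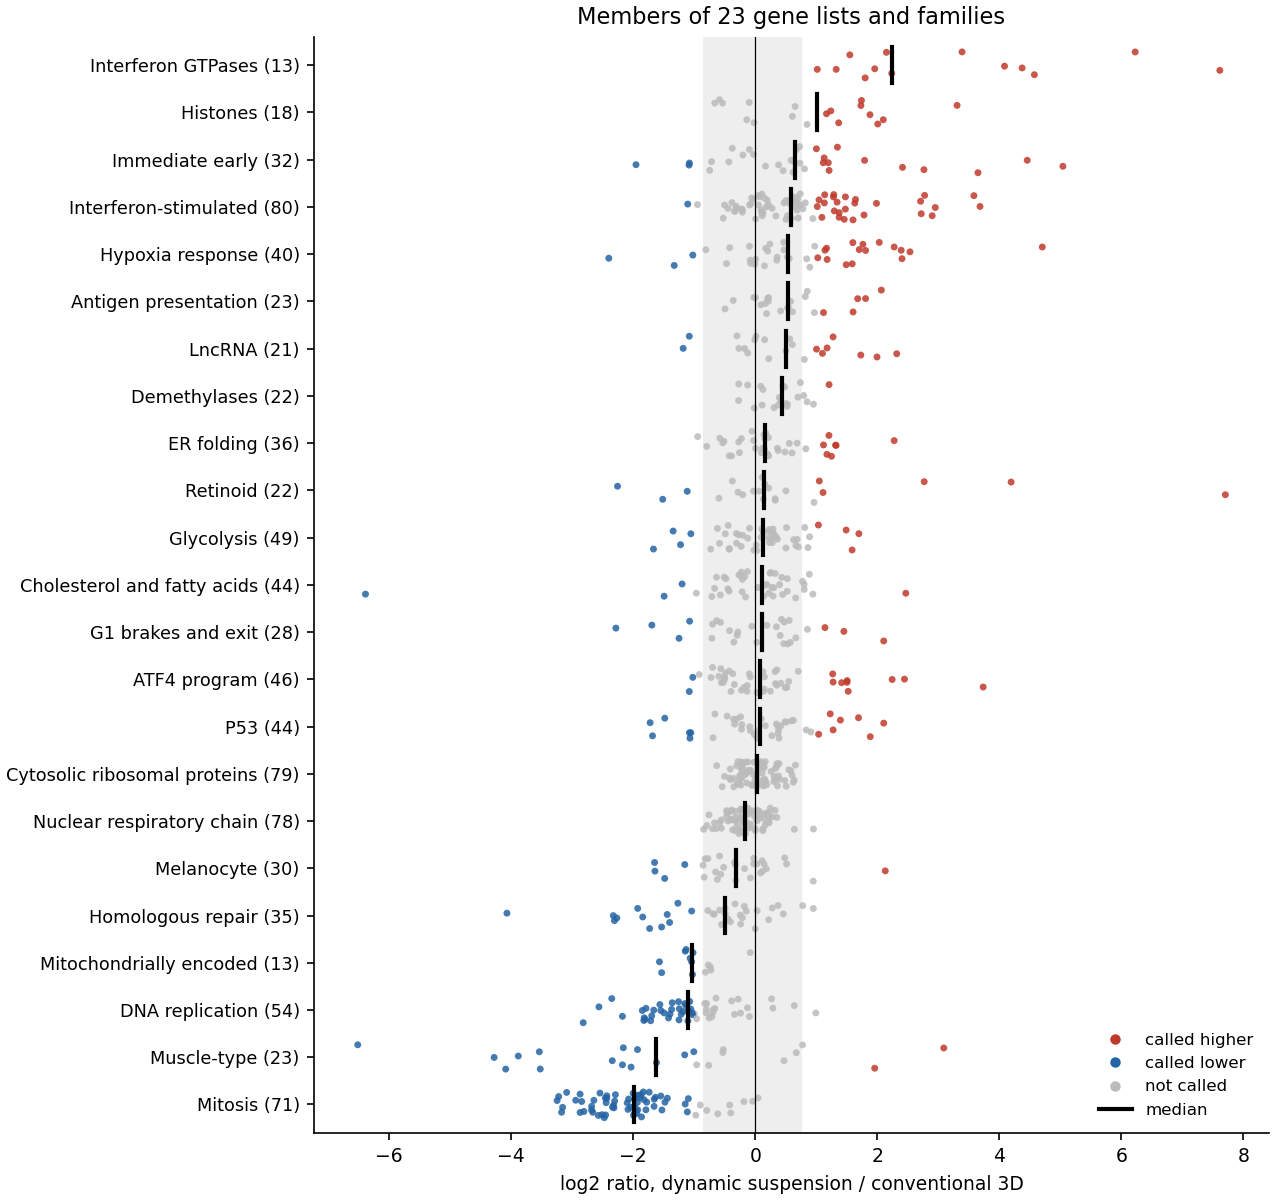
Each point is a measured member's log2 ratio of dynamic suspension over conventional 3D culture (horizontal axis), by gene list or family (vertical axis, number of measured members in brackets), with red called higher, blue called lower, grey not called, a black bar at the median and a grey band from the 10th to the 90th percentile of all measured genes. The medians of mitosis (-1.98), muscle-type genes (-1.62), DNA replication (-1.10) and mitochondrially encoded genes (-1.03) lie left of that band. That of interferon GTPases (2.24) lies right of it. The histone median (1.01) also lies to the right, and 11 of the 18 histone genes share sequence with another gene or copy.

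Interferon-stimulated genes were higher as a list, most of all the large GTPases. All 13 measured GTPases of 18 listed were called higher, with a median of 2.24, and their levels summed to 177 CPM in conventional 3D, 494 in dynamic suspension and 47.8 in shControl. These proteins are induced by interferon and attack vacuoles that hold pathogens. Gbp2 had 12.2 and 47.4 CPM, Gbp3 8.83 and 30.9 CPM and Irgm2 28.6 and 83.7 CPM. Gbp9 was at 0 in conventional 3D and at 6.85 CPM (414 counts) in dynamic suspension, at least 122-fold higher against a floor of 3 counts. Gbp6†, Gbp10† and Gbp4† each share sequence with another gene or copy and had 0.883 and 21.8 CPM, 0.150 and 3.11 CPM and 0.188 and 2.3 CPM. The 13 include 7 that share sequence in this way, and the median over the other 6 was 1.88. The 2 whose exons overlap no other gene and that have no near-identical copy are Irgm1, at 107 and 216 CPM, and Gbp3, with a median log2 ratio of 1.41. Gbp4†, Gbp6†, Gbp9, Gbp10†, Ifi47, Tgtp1† and Tgtp2 were under 1 CPM in conventional 3D and passed the minimum level only through dynamic suspension, where they had to be higher, so the count of 13 supports nothing by itself. The other 5 listed GTPases were not measured.

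The wider interferon list counted 26 higher and 1 lower of 80 measured members of 88, with a median of 0.59. Among RNA-binding and antiviral effectors 14 of 22 were called higher, with a median of 1.37. Ifit1, which binds foreign RNA caps, had 13 and 97.5 CPM, its neighbour Ifit2 99.9 and 219.9 CPM, and Oasl1, of the oligoadenylate synthetase family, 1.47 and 9.85 CPM. Zbp1, a sensor of left-handed nucleic acids, had 0.489 and 6.24 CPM and was the single sensor called of 11, while the median of the sensors was 0.12. Zbp1 passed the minimum level only through dynamic suspension. Of the ISG15 system, Uba7, its activating enzyme, had 14.3 and 49.1 CPM and Usp18, which removes it, 33.6 and 81.9 CPM. Of 10 measured transcription factors of the pathway, 1 was called higher, Nlrc5, which drives MHC class I genes, at 1.15 and 2.48 CPM, and the median was 0.11. Irf7 had 14.9 and 11.8 CPM, Irf9 77.2 and 74.1 CPM and Irf1 39.5 and 42.3 CPM, and these were not called. The 12 immune markers, of which 2 were measured, summed to 15.8 and 14.1 CPM, and what immune cells add to the list was not tested.

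The promoters of Ifit1, Gbp2 and Bst2 are shown because they hold the interferon-stimulated response element letters GAAANNGAA (capitals, either strand) beside unlike ratios. They lie at chr19:34640639-34640918 on the plus strand, chr3:142620413-142620692 on the plus strand and chr8:71537443-71537722 on the minus strand, in RefSeq on GRCm38.p6.
Ifit1: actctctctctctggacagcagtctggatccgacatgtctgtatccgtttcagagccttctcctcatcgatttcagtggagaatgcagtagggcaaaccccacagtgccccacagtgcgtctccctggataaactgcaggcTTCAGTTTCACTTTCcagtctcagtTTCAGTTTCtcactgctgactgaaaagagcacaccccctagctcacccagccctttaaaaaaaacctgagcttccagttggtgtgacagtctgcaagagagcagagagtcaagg
Gbp2: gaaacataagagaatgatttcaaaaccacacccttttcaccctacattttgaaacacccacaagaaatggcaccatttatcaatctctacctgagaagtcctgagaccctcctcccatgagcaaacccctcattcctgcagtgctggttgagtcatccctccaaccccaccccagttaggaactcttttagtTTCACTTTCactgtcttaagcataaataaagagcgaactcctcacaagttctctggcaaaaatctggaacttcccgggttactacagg
Bst2: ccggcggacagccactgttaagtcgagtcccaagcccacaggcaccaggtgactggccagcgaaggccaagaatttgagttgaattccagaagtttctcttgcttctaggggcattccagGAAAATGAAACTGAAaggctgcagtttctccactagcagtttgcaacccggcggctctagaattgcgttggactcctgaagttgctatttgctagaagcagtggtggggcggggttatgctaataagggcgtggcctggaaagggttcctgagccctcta
Ifit1 holds 3 matches, of which those at -109 and -103 overlap, Gbp2 holds 1 at -58, and Bst2 holds 2 overlapping ones at -130 and -124 from the start. Their log2 ratios were 2.90, 1.96 and -0.03, the last being that of tetherin, at 148 and 146 CPM. The letters stood in 8 of 9 GTPase promoters in the table (88.9%), in 13 of 18 of the antiviral effectors (72.2%) and in 6.81% of the promoters of measured genes. Over all called genes they stood in 12.5% of the promoters of higher and 7.4% of those of lower genes.

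**Figure D3:**
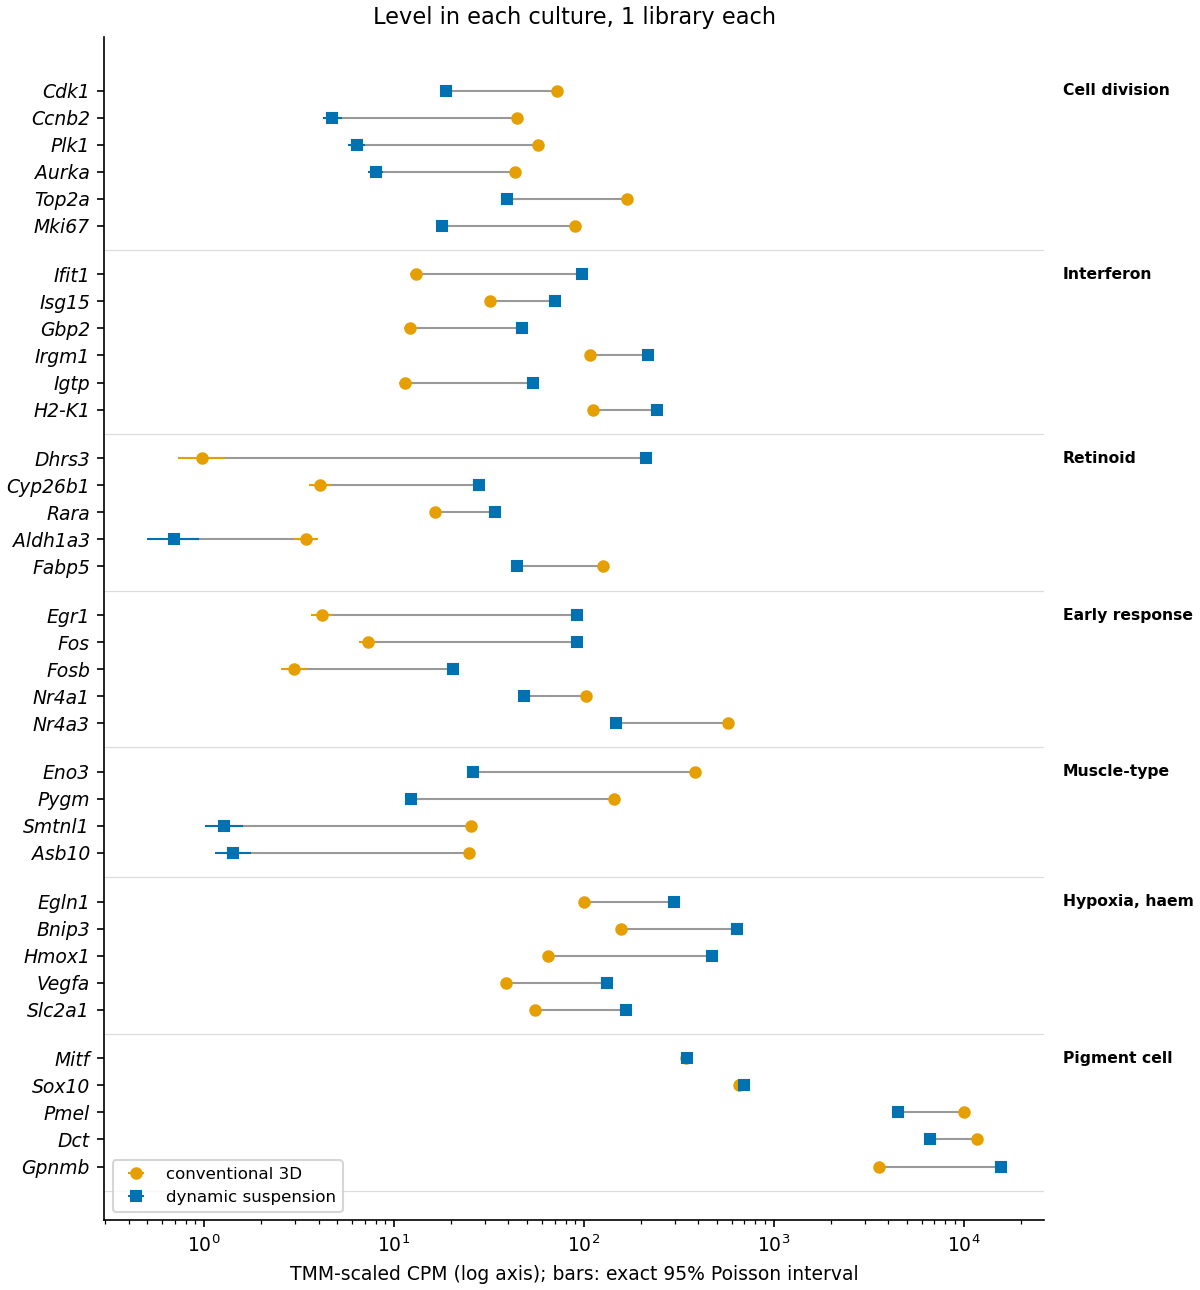
TMM-scaled CPM on a log axis of 36 genes in 7 groups, with a circle for conventional 3D culture, a square for dynamic suspension (1 library each) and bars for the exact 95% Poisson interval, which covers counting error only. All 6 cell division genes shown lie lower in dynamic suspension and all 6 interferon and class I genes higher, while Mitf and Sox10 nearly coincide. The genes were picked from wider lists that also hold members not called, so these counts describe only the genes shown.

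Antigen presentation genes shared the direction in part, with 5 of 23 measured members of 31 called higher and 0 lower and a median of 0.53. Of the 13 that do not share sequence with another gene or copy, 2 were called higher and 0 lower, with a median of 0.22. H2-K1, a classical class I heavy chain, had 112 and 243 CPM, and Tap2†, a subunit of the peptide transporter, 8.31 and 29.1 CPM. B2m, the class I light chain, had 788 and 895 CPM and Tap1 18.6 and 27.8 CPM, and neither was called. Psmb9, a subunit of the immunoproteasome, had 0.658 and 2.07 CPM and passed the minimum level only through dynamic suspension. Cd274†, the checkpoint ligand PD-L1, had 24.3 and 77.8 CPM. The serine protease inhibitor Serpinb9, which blocks granzyme B, had 14.1 and 23.4 CPM.

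Among cytokines and NF-kappaB genes 8 of 28 measured members of 49 were called higher and 1 lower. Lif, a cytokine that signals through gp130, had 0.489 and 16.2 CPM (30.9-fold, 26 against 977 counts), at chromosome 11, 4257557 to 4272514. The T-cell chemokines Cxcl10 and Ccl5 had 15.6 and 47.5 CPM and 19.2 and 107 CPM, and Cxcl12, a homing chemokine made by stromal cells, had 3.93 and 0.414 CPM. Bcl3, a nuclear IkappaB protein, had 1.07 and 11.4 CPM, while Nfkbia, the feedback inhibitor, had 32.7 and 33.9 CPM and was not called. Tnfrsf9, a costimulatory receptor, had 10.8 and 82.2 CPM, the largest ratio among 10 measured members of its superfamily, of which 4 were called higher and 0 lower. In the other direction Il2rb, a chain of the interleukin-2 receptor, had 433 counts in conventional 3D and 0 in dynamic suspension, at least 164-fold lower, and Il1r1 had 2.03 and 0.0662 CPM.

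Retinoic acid is made from retinol in steps, binds nuclear receptors and is broken down by CYP26 enzymes, which its receptors induce. Of 22 measured members of 41, 5 were called higher and 3 lower, with a median of 0.14. Beside Dhrs3, Cyp26b1, which breaks down retinoic acid, had 4.08 and 28 CPM, and Rarb†, a receptor that is itself a target, 3.48 and 64.1 CPM. Rara had 16.5 and 34.1 CPM and Rarg 77.4 and 59.6 CPM. On the supply side Aldh1a3, which makes retinoic acid, had 3.46 and 0.695 CPM, and Fabp5, which carries it, 126 and 44.1 CPM. Of the 6 measured genes listed under targets, a role that does not hold Rarb† or Cyp26b1, none was called, with Nrip1 at 13.5 and 26.3 CPM.

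Immediate early genes, which growth factors and stress induce within minutes, counted 12 called higher and 3 lower of 32 measured members of 38, with a median of 0.65. Egr1 had 4.17 and 92.3 CPM, Fos 7.25 and 91.4 CPM and Fosb 2.99 and 20.5 CPM, and Egr2 0.207 and 7.93 CPM. Against this, the nuclear receptors Nr4a3 and Nr4a1 had 570 and 147 CPM and 103 and 48.4 CPM. Feedback genes of MAP kinase signalling were split, 4 higher and 4 lower of 25 measured members of 33. Dusp1 and Dusp2, phosphatases of MAP kinases, had 68.4 and 26.3 CPM and 25.2 and 9.34 CPM, whereas Dusp10 and Dusp5† had 1.15 and 4.4 CPM and 1.39 and 4.01 CPM. Etv5†, an ETS factor downstream of ERK, had 9.13 and 2.55 CPM. AP-1 letters, TGANTCA, stood in 3.8% of the immediate early promoters and 4.3% of those of measured genes.

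Genes of muscle type were lower, though most of the list was not measured. Of 58 listed 23 were measured, 14 were called lower and 2 higher, and the median was -1.62. Besides Myom1, the muscle enolase Eno3 had 385 and 26.1 CPM, at chromosome 11, 70657202 to 70662513, and Pygm, muscle glycogen phosphorylase, 144 and 12.3 CPM. Acta2, smooth muscle actin, had 10.1 and 2.22 CPM, Des, the intermediate filament desmin, 56.2 and 27.9 CPM, and Smtnl1, a smoothelin-like protein, 25.4 and 1.27 CPM. Smtnl2 and Tnni1 went the other way, at 0.489 and 4.42 CPM and 0.733 and 2.95 CPM. The muscle lineage factors Myod1, Myog, Myf5 and Myf6 were at 0 in both libraries. The regulators Mef2c and Mef2a had 149.9 and 104 CPM and 83 and 115 CPM.

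Matrix genes were lower on balance by count and median. Of 25 measured collagens of 44, 13 were called lower and 2 higher, with a median of -1.17. Of 22 measured matrix glycoproteins of 29, 13 were lower and 2 higher, with a median of -1.06. With members of at least 10 CPM the medians were -1.42 over 10 collagens and -0.61 over 12 matrix glycoproteins. The summed levels were 390 and 234 CPM for collagens and 1660 and 2000 CPM for matrix glycoproteins. Col1a2, a chain of fibrillar collagen, had 35.2 and 8.16 CPM, Col6a3 8.63 and 0.778 CPM and Fbn1†, fibrillin, 16.3 and 2.93 CPM. Col5a1 and Col18a1 were called higher, at 11.7 and 55 CPM and 0.789 and 3.48 CPM, as were Sparc, a collagen-binding protein, at 559 and 1140 CPM, and Spp1†, osteopontin, at 13.7 and 102 CPM. The 8 fibroblast markers, several of them members of these families, summed to 129 and 37.6 CPM, and their part in the result was not tested. Laminins and nidogens had no called gene among 7 measured of 13, with Lama5 at 82.6 and 83.5 CPM.

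Adhesion receptors and proteases showed single large differences. Itgb3, the beta subunit of the vitronectin receptor, had 759 and 145 CPM (5.23-fold), at chromosome 11, 104608000 to 104670476, while Itgb1, shared by most matrix receptors, had 539.6 and 525 CPM. Of 13 measured integrins of 21, 4 were called lower and 0 higher. Adam23, Adam12 and Adam19†, membrane proteins of the disintegrin family, had 274 and 13.1 CPM, 105 and 7.23 CPM and 36.9 and 2.81 CPM, and the shedding enzymes Adam10 and Adam17 had 102 and 98.3 CPM and 86 and 96.3 CPM. Cdh13, an anchored cadherin, had 15.5 and 0.579 CPM, and Cdh2, N-cadherin, 34.6 and 78.4 CPM. Within the galectins Lgals3 had 32.5 and 301 CPM and Lgals1 1728 and 654 CPM, so 2 lectins of 1 family went opposite ways.

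**Figure D4:**
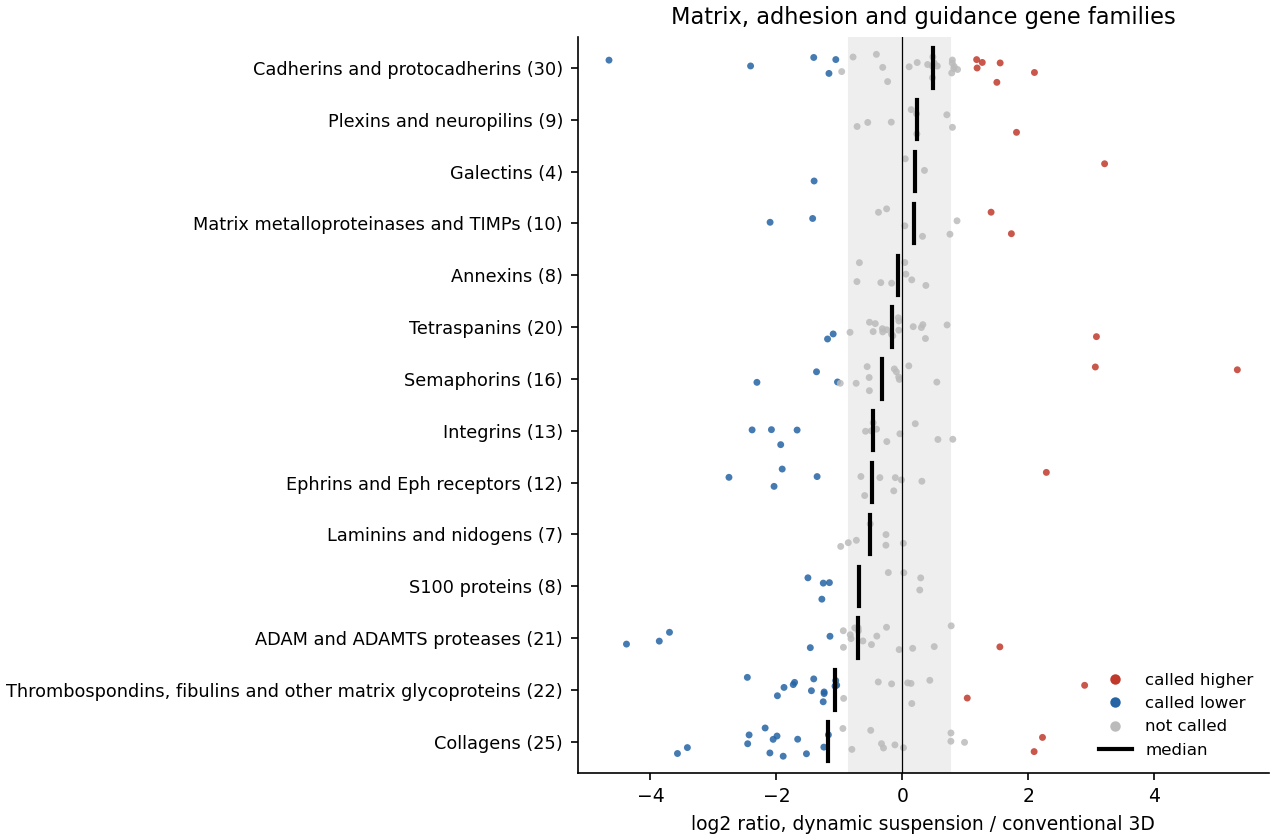
Log2 ratio of dynamic suspension over conventional 3D culture (horizontal axis) for each measured member of 14 matrix, adhesion and guidance families (number measured in brackets), coloured by call, with a black bar at the median and a grey band from the 10th to the 90th percentile of all measured genes. The medians of collagens (-1.17) and matrix glycoproteins (-1.06) lie left of the band, and single members such as Sema7a (5.32) and Cdh13 (-4.66) stand far from their families. Over the 12 matrix glycoproteins of at least 10 CPM the median (-0.61) lies inside the band.

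Guidance molecules, which steer axons and migrating cells, held Sema7a, next after Dhrs3 in the ranking above. Of 16 measured semaphorins of 20, 2 were called higher and 3 lower. Beside Sema7a, Sema3e had 0.601 and 5.28 CPM, and Sema3c had 4.32 and 0.844 CPM. Their receptor component Nrp2 had 315 and 1105 CPM, and Nrp1 13.4 and 15.8 CPM. Of 12 measured ephrins and ephrin receptors of 21, 4 were called lower and 1 higher, with a median of -0.48. The receptors Epha3 and Epha7 were among those called lower, at 291 and 43.2 CPM and 56.8 and 13.8 CPM, and the ligand Efna1 was the member called higher, at 1.37 and 6.82 CPM.

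In the pigment cell list, 4 of 30 measured members of 36 were called lower and 1, Gpnmb, higher. Mitf had 344 and 350.4 CPM and Sox10 658 and 698 CPM, and the melanin enzymes Dct, Tyrp1 and Tyr had 11693 and 6619 CPM, 6304 and 4401 CPM and 1260 and 1009 CPM, none of them called. The 4 called lower carry melanosome structure and transport: Pmel, Slc24a5† at 1011 and 322 CPM, Oca2 at 233 and 74.4 CPM, and the motor Myo5a at 2176 and 777 CPM. A list drawn up for the less differentiated, invasive state was split, 5 higher and 4 lower of 22 measured of 33. How well each member marks that state was not tested. Axl, a receptor of that state, had 119 and 58.8 CPM and Vim, vimentin, 1432 and 483 CPM. Sox9 and the receptor Erbb3, also on the list, had 20.4 and 54.7 CPM and 57.8 and 182 CPM.

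The stem-like list, named for the cells that both cultures were set up to enrich, gave 3 higher and 5 lower of 26 measured of 42, with a median of -0.18. Pou5f1, Sox2, Nanog, Prom1 and Abcb5 fell below the level needed to be measured. Klf4 had 0.846 and 3.01 CPM, Nes, an intermediate filament of neural precursors, 19.7 and 47.8 CPM, Thy1 2.29 and 0.364 CPM and Abcb1b†, a drug efflux pump, 19.5 and 3.08 CPM. Abcg2, the efflux pump used to define side populations, had 19.7 and 23.8 CPM and Itga6 63.2 and 42.1 CPM, and neither was called.

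Genes of the hypoxia response were higher in 16 of 40 measured members of 49 and lower in 3, with a median of 0.54. Of the 32 that do not share sequence with another gene or copy, 10 were called higher and 3 lower, with a median of 0.36. Over the 22 members whose exons overlap no other gene and that have no near-identical copy, the median was 0.30. The factors of the response had 542 and 390.5 CPM (Hif1a) and 24.1 and 13.7 CPM (Epas1), neither called. Egln1, the oxygen-sensing hydroxylase that marks HIF-1α for breakdown, had 99.6 and 299 CPM. Vegfa, the vascular growth factor, had 39 and 132 CPM, Higd1a†, a mitochondrial inner membrane protein, 22.6 and 131 CPM, and Ankrd37† 0.226 and 6.75 CPM. Against the list, Car12 had 2.16 and 0.381 CPM, Lox 14 and 5.54 CPM and Car9, a carbonic anhydrase used as a hypoxia marker, 24.8 and 18.5 CPM, the last not called. Glycolysis genes did not share a direction by count, 4 higher and 4 lower of 49 measured of 52. Slc2a1, a glucose transporter, had 55.2 and 166 CPM and Slc2a3, another, 36.8 and 17.7 CPM, while Gapdh† had 276 and 896 CPM and the glycogen enzymes Gyg and Ugp2 had 1215 and 478 CPM and 1292 and 553 CPM.

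The promoters of Egln1 and Car9 are shown because both hold ACGTG (capitals, either strand), the core of the hypoxia response element, with different ratios. They lie at chr8:124949225-124949504 on the minus strand and chr4:43506776-43507055 on the plus strand, in RefSeq on GRCm38.p6.
Egln1: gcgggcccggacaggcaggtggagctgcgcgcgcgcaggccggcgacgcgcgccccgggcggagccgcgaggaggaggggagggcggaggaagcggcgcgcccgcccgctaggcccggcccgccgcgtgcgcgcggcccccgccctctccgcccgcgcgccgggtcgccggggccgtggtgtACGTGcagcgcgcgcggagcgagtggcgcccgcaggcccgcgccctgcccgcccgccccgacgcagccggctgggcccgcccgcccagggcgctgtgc
Car9: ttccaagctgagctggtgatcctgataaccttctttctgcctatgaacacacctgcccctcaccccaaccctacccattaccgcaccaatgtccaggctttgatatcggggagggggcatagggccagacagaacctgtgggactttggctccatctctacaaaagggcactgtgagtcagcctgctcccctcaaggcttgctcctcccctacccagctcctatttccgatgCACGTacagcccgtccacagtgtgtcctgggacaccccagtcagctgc
The match stands at -68 in Egln1, whose log2 ratio was 1.59, and at -18 in Car9, whose ratio was -0.42. These letters stood in 16 of 29 hypoxia promoters (55.2%), 45.6% of the glycolysis promoters and 26.4% of those of measured genes, and they also form part of the E-box CACGTG.

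Cells short of amino acids or under folding stress turn on the factor ATF4 and the chaperones of the endoplasmic reticulum. In the ATF4 programme 9 of 46 measured members of 49 were called higher, 5 of them factors and 4 feedback genes and effectors, and 2 were lower. Ddit3†, the factor CHOP, had 29.3 and 391 CPM and Chac1, which degrades glutathione, 21.1 and 59.9 CPM, but the amino acid enzymes Asns and Phgdh† had 272 and 192 CPM and 232 and 143 CPM, not called. In the endoplasmic reticulum 7 of 36 measured members of 37 were called higher and 0 lower, including Hsp90b1† at 347 and 864 CPM and Pdia4 at 233 and 537 CPM, whereas the sensor Ern1 had 84.7 and 81.5 CPM and Xbp1 169 and 117 CPM. CCAAT stood in 76.7% of the 30 promoters of that list in the table, against 39.5% of those of measured genes. Hmox1, which degrades haem, had 64.3 and 471 CPM and Nqo1, often listed with it as a target of NRF2, 15.4 and 3.71 CPM. Mt1 and Mt2†, metallothioneins, had 135 and 446 CPM and 60.2 and 238 CPM, and Gpx1 and Gpx4†, glutathione peroxidases, 49.9 and 184 CPM and 193 and 462 CPM.

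Lipid genes were largely even, 1 called higher and 3 lower of 44 measured of 46. Abca1, which exports cholesterol, had 53.9 and 298 CPM, and Insig1, which holds back its synthesis, 385 and 168 CPM. Abca1 was the single ABC transporter called higher of 25 measured of 50, with 6 lower.

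In the p53 list 7 of 44 measured members of 50 were called higher and 6 lower, with a median of 0.07. Among the 13 arrest and feedback targets, all measured, 5 were called higher and 3 lower, with a median of 0.62. Trp53 had 143 and 116 CPM, its inhibitor Mdm2 32.3 and 57.7 CPM and the arrest gene Cdkn1a 341 and 434 CPM, none of them called. Polh, a polymerase that bypasses ultraviolet damage, had 36.7 and 13.1 CPM, Zmat3 131 and 62.9 CPM and Sirt1, a deacetylase of p53, 6.45 and 15.1 CPM. The 8 measured apoptosis targets held no called gene, Bax† at 75.9 and 64.9 CPM and Bbc3 at 7.1 and 6.72 CPM among them. Outside that list, Bcl2l11, the death promoter BIM, had 7.72 and 32.9 CPM and Bok 7.27 and 0.977 CPM.

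TGF-beta and BMP genes counted 6 higher and 3 lower of 33 measured of 45: Pmepa1 and Smad7, both inhibitors induced by the pathway, had 2.57 and 36.7 CPM and 0.752 and 3.33 CPM. The ligand Tgfb1 had 195 and 88.7 CPM and its binding protein Ltbp1 1.6 and 7.99 CPM. Wnt genes counted 0 higher and 5 lower of 22 measured of 39, but their median was -0.008 and their summed levels were 1878 and 2611 CPM. Among those called lower, Tcf7, a nuclear factor, had 14.6 and 1.94 CPM and Sfrp1, a secreted inhibitor, 4.15 and 0.761 CPM. Myc had 36 and 16.8 CPM, its antagonist Mxd1 16.8 and 40.1 CPM and the related Bmyc† 3.5 and 93.9 CPM. Clock genes counted 3 higher and 0 lower of 14 measured of 17, Hlf at 1.63 and 7.3 CPM and Dbp† at 25.1 and 53.7 CPM.

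Channels and signalling enzymes had large differences in single genes. Kcnj13†, an inward rectifier potassium channel, had 623 and 1370 CPM, and Trpv4, a calcium channel opened by stretch and swelling, 7.72 and 0.844 CPM. Prkca, a protein kinase C, had 54.2 and 184 CPM. Slc6a6, the taurine transporter, had 397 and 102 CPM and Slc18a1, a vesicular amine transporter, 0.188 and 5.69 CPM. Of 176 measured solute carriers of 340, 10 were called higher and 21 lower.

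Long noncoding genes were called higher more often than coding genes. Of 183 measured lincRNA genes 53 were called higher (29.0%) and 13 lower, and of 140 antisense genes 36 were higher (25.7%) and 12 lower, against 5.92% higher of 11411 protein-coding genes. The share called is larger in both directions at low levels, and the gene types were not matched for level. Malat1 and Neat1, nuclear RNAs of speckles and paraspeckles, had 82.3 and 328 CPM and 27.4 and 91 CPM, and Dleu2 1.58 and 8.01 CPM, while H19, an imprinted RNA, had 10.3 and 4.5 CPM. Among zinc finger Zfp genes 37 of 334 measured of 403 were called higher and 3 lower, with a median of 0.30. Zfp458 had 1.13 and 4.04 CPM and Zfp729b† 5.96 and 21.9 CPM. Of 18 measured histone genes of 88, 9 were called higher and 0 lower, Hist1h2bc† at 22.1 and 73.5 CPM and H1f0, a linker histone of non-dividing cells, at 213 and 713 CPM. The 18 include 11 that share sequence with another gene or copy, and of the other 7, 2 were called higher, with a median of 0.65. Replication histone mRNA normally lacks a poly(A) tail, the libraries were poly(A) selected, and what this does to these values was not tested.

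**Figure D5:**
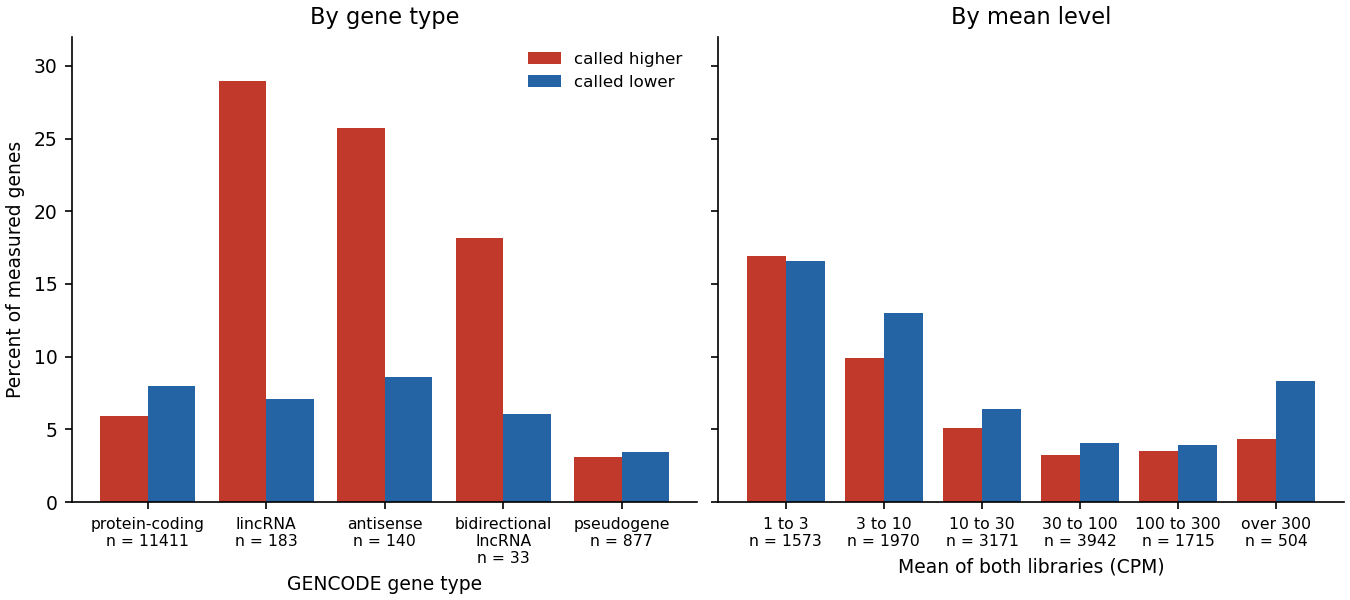
Percent of measured genes called higher (red) or lower (blue) in dynamic suspension, by annotated gene type (left) and by mean level in CPM (right), with the number of measured genes under each pair of bars. The higher share of lincRNA genes (29.0%) and antisense genes (25.7%) exceeds that of protein-coding genes (5.92%), and both shares are largest at 1 to 3 CPM.

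Mitochondrially encoded genes were lower, 8 of 13 called and 0 higher, with a median of -1.03. Of these 8, mt-Co2, mt-Nd1, mt-Nd3, mt-Nd4l and mt-Nd5 came inside 2-fold under total-count scaling, so their calls depend on the scaling. mt-Nd5 had 8980 and 4426 CPM and mt-Nd1, another subunit of complex I, 6367 and 3037 CPM, while mt-Nd2, also of that complex, had 2677 and 2526 CPM. The nuclear respiratory chain genes, in contrast, held 0 called of 78 measured of 94 and a median of -0.17. Ribosomal proteins were even as well, with 0 called of 79 measured cytosolic members of 83 (median 0.02) and 0 of 75 mitochondrial ones (median -0.13). Under total-count scaling, each list median lies 0.18 to 0.19 higher, which turns the sign of 19 of the 88 medians, those of the nuclear respiratory chain, the mitochondrial ribosome, the stem-like list, solute carriers and Wnt genes among them.

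Some called genes lie side by side. There were 5 runs of at least 4 neighbouring measured protein-coding genes called in 1 direction, all of them higher. They were looked for after the values were seen. Of their members, Gbp4†, Gbp6†, Gbp9, Gbp10†, Fcna and Lcn8 were under 1 CPM in conventional 3D. These passed the minimum level only through dynamic suspension, where they had to be higher, so the runs that hold them support nothing by themselves. The run on chromosome 19 from 34550694 to 34650009 holds Ifit2, Ifit3†, Ifit3b† and Ifit1, and the run on chromosome 5 from 105077630 to 105293698 holds Gm43302†, Gbp9, Gbp4†, Gbp10† and Gbp6†. On chromosome 7 from 104244457 to 104507849, 6 genes of the Trim5† and Trim30 group were higher, with Trim30a, an induced ubiquitin ligase, at 10.3 and 79.8 CPM and Trim30d at 5.52 and 26.2 CPM. Histone genes formed the run on chromosome 13 from 23531050 to 23692908. The run on chromosome 2 from 25620067 to 25707721 joins genes of unlike families: Tmem141 had 14.4 and 62.9 CPM, Fcna, ficolin A, 0.0376 and 15.03 CPM (2 and 908 counts, a ratio of 400 between the scaled counts with no prior count added, with a counting interval from 110 to 3307), Lcn8 0 and 179 counts (at least 52.6-fold higher), and Bmyc† 3.5 and 93.9 CPM.

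Over the called genes, shControl served as a further library of the same line. Of the 833 higher genes its level was nearer that of dynamic suspension for 343 (41.2%), and of the 989 lower genes for 513 (51.9%). So neither culture was the nearer to shControl throughout.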

How the data were processed

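RNA was measured in 5 poly(A)-selected, strand-specific libraries (paired 150 bp reads, inserts near 300 bp, RNA integrity number over 7.0), per the labels' protocols, and 2 of them are compared here. The tools HISAT2, StringTie and cutadapt and the builds GRCm38.p6 and mm10 are named, per the submitters' processing notes. What counted the reads, and on which annotation, is not given in the sources used here. The deposited values per Ensembl gene are estimated counts in both cultures and in shControl, by their pattern of low values, and plain counts in the libraries labelled knockdown and overexpression. They were used as deposited and no column was left out.

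Levels are CPM with TMM factors over all 5 libraries (edgeR 4.0.16, R 4.3.3), 0.869 for conventional 3D and 0.990 for dynamic suspension. Ratios used a prior count of 2. Measured genes have a mean of at least 1 CPM. Intervals are exact 95% Poisson (levels) and conditional binomial (ratios), computed in Python 3.11.15 with scipy 1.17.1. A count of 0 was given a floor of 3 counts, 0.0564 CPM in conventional 3D and 0.0497 CPM in dynamic suspension. With 1 library per culture no test was run. Scripts were tested on simulated data. Exon overlap and copies, as shared runs of 50 bases, came from GENCODE M21, and promoters from RefSeq, 1 window per gene, the most upstream.

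The members, the 37 gene lists and the 51 families were chosen with earlier results of these data known. Genes named are, by rule, the 20 highest and 20 lowest of at least 10 CPM with sequence of their own, the 10 largest gains and losses in CPM, Hif1a, Epas1, Trp53, Mdm2 and Cdkn1a, and in each list or family up to 6 called members in each direction, the 3 nearest to no difference and every member of small roles. Ifit2, Irf1, Irf7, Irf9, Nlrc5, Asns, Phgdh, Tmem141, Fcna, Lcn8 and the genes of the neighbouring runs were named after their values were seen. Alternatives in scaling, prior count, level minimum, fold and gene set were tried. Some genes are not reported here.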

Additional observations from a re-analysis of the deposited data

How the results depend on the processing

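The count of genes called higher, 833, became 2484 with no minimum level, 372 with a mean of at least 10 CPM, 207 at 4-fold, and 383 among protein-coding genes with sequence of their own. The count called lower, 989, became 2227, 472, 273 and 546 under the same settings. Counts within 1.5 times of these came from total-count scaling (1120 and 706), TMM over the 2 libraries (830 and 949), DESeq2 size factors (821 and 999), prior counts of 0.5 (844 and 997) and 10 (797 and 946), and values divided by 4 before the interval (801 and 956), the last chosen after seeing the data. Of 447 called genes named by the rule, 57 came inside 2-fold under total-count scaling. Of 88 list and family medians 19 changed sign under total-count scaling, all by a shift near 0.19, 9 with members of at least 10 CPM and 13 with members that have sequence of their own, where fewer members were counted. With members of at least 10 CPM the serpin median went from -0.92 to 0.0066, over 4 members, and that of ephrins and ephrin receptors from -0.48 to -2.04, over 3 members. No paired analysis was possible because each culture has 1 pooled library. The share called higher differed by level, with 16.9% at 1 to 3 CPM, 3.25% at 30 to 100 CPM and 4.37% above 300 CPM. The cause was not tested.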
